A study of Mus musculus with 30 samples.

Results

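Healthy lymph node was compared with healthy blood in the 4 mice that gave both organs, H3, H4, H6 and H7. The members are the 10 libraries of these mice and organs, out of 30 in the series, and they hold 2856 of 8282 barcodes, with 1137 from lymph node and 1719 from blood. The rule for them uses the labels of organ, state and mouse and no measured value. Each organ of H3, H6 and H7 gave 1 library, and each organ of H4 gave 2, which were added up. All were male DBA1/J mice, a strain prone to arthritis, with an arthritis score of 0, and by the study's methods they had been given a saline injection in place of collagen. Blood here means peripheral mononuclear cells isolated over a density gradient, and a lysis step against red cells was applied to both organs. The lymph nodes were pressed through a strainer without enzyme. Samples were frozen before use. The assay was Seq-Well, which pairs single cells with barcoded beads in tiny wells so that RNA can be traced to its cell.

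A lymph node is packed with T cells and B cells that enter from the blood, wait for antigen and leave again through the lymph. Blood carries the same lymphocytes in transit, together with monocytes, natural killer cells, neutrophils, platelets and red cells, of which a density gradient keeps mainly the mononuclear ones. Nodes also hold fibroblasts, vessels, dendritic cells and macrophages, which are held in the tissue and often stay behind unless it is digested.

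The deposited values are whole numbers summed over each barcode and its nearest neighbours, so they are called units and not counts. A level is given in units per 1000000 units (UPM) after trimmed-mean scaling, a difference is the lymph node value minus the blood value of the same mouse on the scale log2(UPM + 10), and mice are listed in the order H3, H4, H6 and H7. The mouse was the replicate (n = 4 pairs). Fewer cells of a type and less RNA per cell cannot be told apart in such sums. Units per mouse and organ ran from 217494 in blood of H3 to 6756698 in blood of H7. Blood of H3 stood apart, with 27 barcodes that held 7 distinct profiles, against 230 to 934 barcodes in the other 7 sums. In that blood the smallest level above 0 was 28.1 UPM, against 0.937 to 4.53 UPM elsewhere. Genes whose largest value in a library was 1 made up 12.6% to 18.8% of genes in the 5 lymph node libraries but 15.4% to 58.1% in the 5 blood libraries. A gene at 0 is therefore only listed at 0.

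The make-up of the libraries differed first in haemoglobin. The haemoglobin genes held 22.8%, 52.9%, 3.88% and 19.1% of units in blood and 0.00953%, 2.40%, 0.432% and 14.9% in lymph node. Every mouse had the lower share in its lymph node, but the node of H7 lay above the blood of H6, so the organs overlapped. Barcodes were also sorted into ranges by summed marker levels, which are ranges and not cell types. Barcodes with at least 10% haemoglobin made up 51.9%, 82.1%, 7.19% and 57.1% of blood and 0%, 2.25%, 0.870% and 14.1% of lymph node. Those with T-cell markers at least 3 times the B-cell markers, called the T-marker range, made up 65.7%, 65.0%, 72.6% and 18.5% of lymph node and 48.1%, 1.99%, 0% and 1.50% of blood. The T-marker share was thus higher in the node in 4 of 4 mice, although blood of H3 (13 barcodes with 2 distinct profiles) exceeded the node of H7. The B-marker range held 0%, 13.3%, 55.9% and 30.6% of blood and 5.76%, 1.61%, 1.30% and 12.9% of lymph node, higher in blood in 3 of 4 mice. Barcodes whose 2 marker sums lay within a ratio of 2 to 4, near the limit of these ranges, numbered 317 of 1137 in lymph node and 143 of 1719 in blood. No barcode sequence occurred in more than 1 of these libraries. No doublet caller was run on the smoothed values, and the study's methods describe a ceiling on transcripts per cell against doublets only for a joint analysis of 5 other organs.

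**Figure D1:**
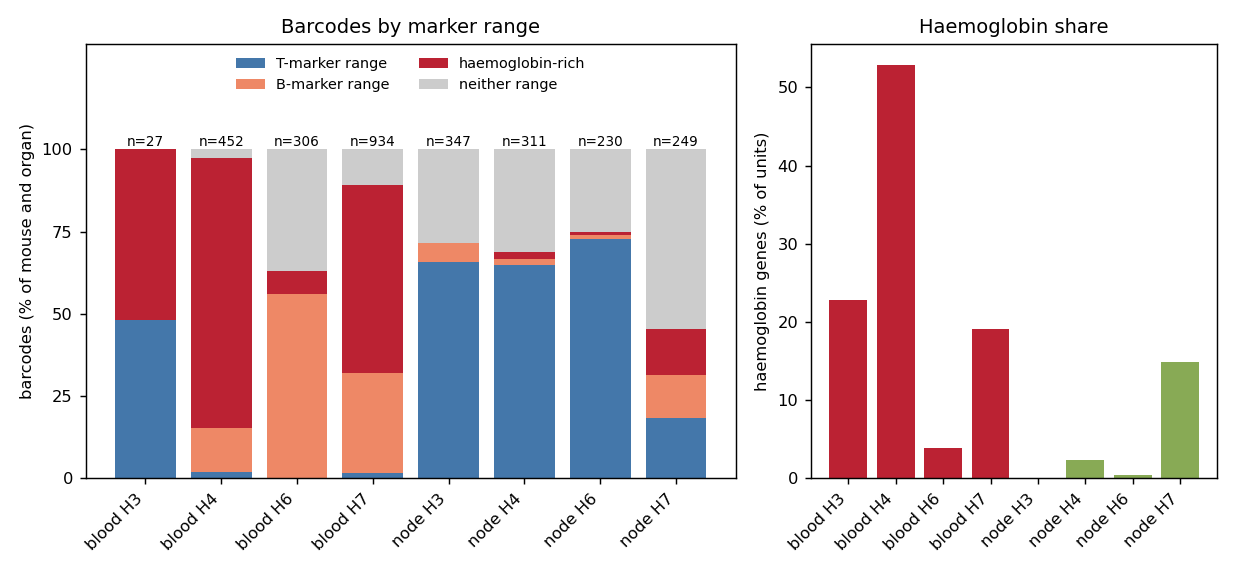
Left, share of barcodes (percent, y axis) in each marker range for blood and lymph node of the 4 healthy mice (x axis), with the number of barcodes over each bar. Right, share of units on haemoglobin genes (percent). T-marker barcodes hold 65.0% to 72.6% of 3 lymph nodes and 18.5% of the node of H7, whose haemoglobin share of 14.9% lies near that of 2 bloods.

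Of 4990 genes tested, 9 were called at an adjusted p under 0.05 (limma, paired within mouse, 0.18% of genes) and all 9 were lower in lymph node. They fall into 4 groups by role. Il1b, S100a8 and S100a9 are neutrophil and monocyte genes of inflammation, Lyz2 is the lysozyme of myeloid cells, Gzma is a protease of killer cells, and Hba-a1, Hbb-bt, Hbb-bs and Alas2 are genes of red cells. No gene was called higher in lymph node by limma, with 450 genes higher (9.02%) and 241 lower (4.83%) at an unadjusted p under 0.05. All 4 lymph nodes lay above all 4 bloods for 173 genes (3.47%), and all 4 bloods lay above all 4 nodes for 207 genes (4.15%). The 9 calls kept their direction under all 19 other settings, but their number depended on single mice: 2 genes were called without mouse 3, 16 without mouse 4, 0 without mouse 6 and 23 without mouse 7. Of the 9, Il1b alone was still called without mouse 3 (adjusted p from 0.066 to 0.0744 for the other 8), and without mouse 6 the adjusted p of the 9 ran from 0.0866 to 0.128. As folds, sizes also moved by over 1.5 times from the fit of all 4 mice for S100a9, Lyz2 and Alas2. Their log2 differences were -2.99 without mouse 3 and -4.73 without mouse 7 for S100a9, and -2.08 without mouse 6 for Lyz2. For Alas2 they were -2.90 without mouse 4 and -4.38 without mouse 7. Without the pairing (no replicate block) 2 genes were called, Il1b and Gzma, and with scaling by the total alone 0 were, with 934 genes at an unadjusted p under 0.05. Median-of-ratios scaling and scaling without the haemoglobin genes each called 8 genes, 7 lower and 1 higher, of which 7 were among the 9. Other settings called more genes higher in lymph node, 120 of 134 in libraries ending in 2CIA, 23 of 51 with no filter on low values and 30 of 66 with the libraries of H4 as separate pairs.

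The myeloid calls came first. Il1b, the gene of the cytokine interleukin 1 beta (chr2:129364569-129371164), stood at 131, 339, 151 and 247 UPM in blood and at 0, 0, 0 and 38.5 UPM in lymph node. Blood lay above the node without overlap, and 3 of 4 nodes were listed at 0. The difference was -3.84 ± 0.59 (SE) (limma adjusted p = 0.00789), and with the nodes at 0 its size follows the pseudocount, at -6.34 with 1 (adjusted p = 0.432) and -2.14 with 50. S100a9 (chr3:90692630-90695721) and S100a8 (chr3:90669071-90670034) encode both chains of calprotectin, a calcium-binding protein that neutrophils hold in bulk. S100a9 measured 609.8, 1818, 651 and 1731 UPM in blood and 0, 151, 13.4 and 873 UPM in lymph node, a difference of -3.82 ± 0.59 (SE) (adjusted p = 0.00789). S100a8 measured 472, 3247, 941 and 3831 UPM in blood and 23.9, 541, 65.0 and 2011 UPM in lymph node, a difference of -2.75 ± 0.46 (SE) (adjusted p = 0.0122). Both were lower in the node of every mouse, yet the node of H7 reached the blood range of other mice. In that node S100a8 stood at 6664 UPM within the haemoglobin-rich barcodes and at 457 to 616 UPM within the other 3 ranges (scaled here by the total of the range alone).

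Lyz2 (chr10:117277541-117282272) measured 1876, 765, 1025 and 939.6 UPM in blood and 204, 144, 28.4 and 409 UPM in lymph node. The organs did not overlap, and the difference was -2.85 ± 0.49 (SE) (limma adjusted p = 0.0122). Gzma (chr13:113093824-113100981), the granzyme A gene of natural killer and cytotoxic T cells, stood at 394, 55.1, 264 and 126 UPM in blood and was listed at 0 in all 4 lymph nodes (limma adjusted p = 0.00789). No fold is given against a group listed at 0. Within blood, scaled by the total of the range alone, its level in B-marker barcodes was 0, 302 and 100.3 UPM in H4, H6 and H7. In haemoglobin-rich barcodes it was 966, 28.8, 163 and 133 UPM in the 4 mice, the first from 14 barcodes with 5 distinct profiles.

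The other calls were red cell genes. Hbb-bs (chr7:103826523-103827928), an adult beta-globin gene, held 16.7%, 37.3%, 2.70% and 14.2% of units in blood and 0.00814%, 1.63%, 0.324% and 10.8% in lymph node. Hba-a1 (chr11:32283672-32284486), an adult alpha-globin gene, held 3.29%, 10.1%, 0.578% and 3.20% in blood and 0.00138%, 0.349%, 0.0504% and 1.94% in lymph node. Hbb-bt (chr7:103812524-103813923), another adult beta-globin gene, held 1.45%, 4.12%, 0.293% and 1.44% in blood and 0%, 0.158%, 0.0408% and 1.24% in lymph node. Blood of H4 was the highest and lymph node of H3 the lowest for each, and the node of H7 lay above the blood of H6, so none of the 3 separated the organs without overlap. The differences were -5.03 ± 0.98 (SE), -5.19 ± 0.88 (SE) and -4.84 ± 0.91 (SE) (limma adjusted p = 0.0367, 0.0122 and 0.0285). Without mouse 3, whose blood had 27 barcodes, they were -3.11, -3.48 and -3.03 and none was called (adjusted p = 0.066, 0.066 and 0.0744), and without mouse 7 they were -6.47, -6.57 and -6.27. Hbb-bs and Hbb-bt were also not called under median-of-ratios scaling or scaling without haemoglobin genes. Globin genes are near-identical copies, so their division among Hbb-bs, Hbb-bt, Hba-a1 and Hba-a2 is uncertain, and the summed share above does not depend on it. Alas2 (chrX:150547417-150570622), the first enzyme of haem synthesis in red cell precursors, measured 163, 1173, 79.7 and 394 UPM in blood and 0, 9.23, 0 and 173 UPM in lymph node, a difference of -3.59 ± 0.63 (SE) (adjusted p = 0.0144). With haemoglobin-rich barcodes left out 3 genes were called, Hba-a1, Hbb-bt and Hbb-bs, and the other 6 calls kept their sign with smaller differences, from -2.56 for Il1b to -1.66 for S100a8. Blood of H3 then held 13 barcodes with 2 distinct profiles.

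**Figure D2:**
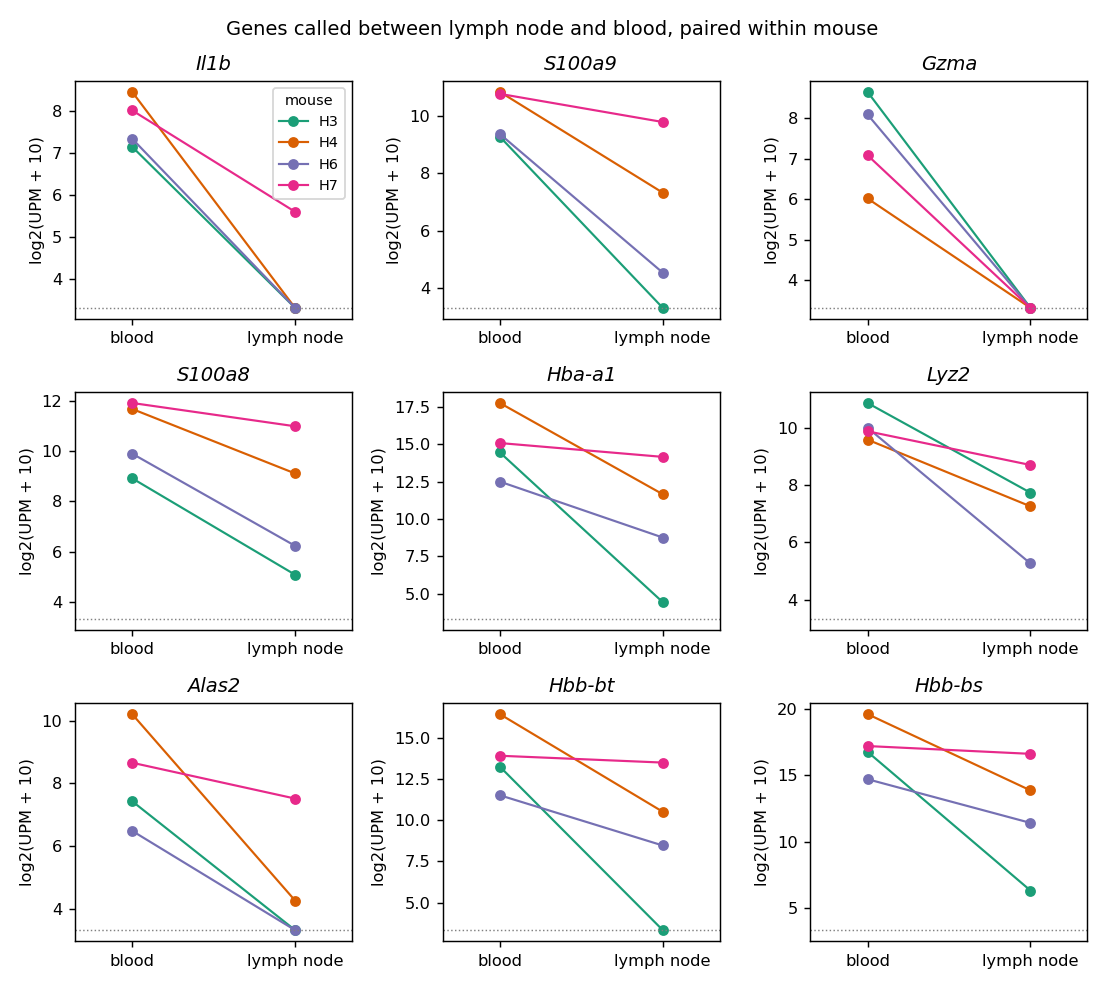
Level of the 9 called genes in blood and lymph node on the scale log2(UPM + 10) (y axis), with a line for each of the 4 healthy mice. The dotted line marks a gene listed at 0, and every line falls from blood to lymph node, least in H7 for 8 of the 9 genes.

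The 4 red cell genes were called together, so the stretch of 120 bases before each of their starts is shown, read 5′ to 3′ on the gene's strand from RefSeq on GRCm38.p6. Capitals mark, on either strand, the letters CACCC known as a CACC box, CCAAT known as a CCAAT box, TATAAA known as a TATA box and AGATAA known as a GATA motif, and neighbouring or overlapping matches run together.
Hba-a1 (chr11:32283552-32283671, plus strand): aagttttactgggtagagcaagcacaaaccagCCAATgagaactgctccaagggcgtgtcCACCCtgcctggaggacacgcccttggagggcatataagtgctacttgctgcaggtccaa
Hbb-bt (chr7:103813924-103814043, minus strand): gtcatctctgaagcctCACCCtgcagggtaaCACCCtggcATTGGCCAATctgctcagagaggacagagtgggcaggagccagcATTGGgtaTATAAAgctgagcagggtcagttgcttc
Hbb-bs (chr7:103827929-103828048, minus strand): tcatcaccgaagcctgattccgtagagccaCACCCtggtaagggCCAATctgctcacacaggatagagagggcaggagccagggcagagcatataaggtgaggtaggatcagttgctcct
Alas2 (chrX:150547297-150547416, plus strand): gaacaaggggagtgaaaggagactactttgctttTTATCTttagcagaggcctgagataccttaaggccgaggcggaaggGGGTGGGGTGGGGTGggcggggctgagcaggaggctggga
All 4 stretches hold CACCC, as do those of the called genes Il1b and S100a9, and the 3 globin stretches hold CCAAT, which the other 6 called genes lack there. In the same 120 bases before the start of 27025 genes, CACCC occurred in 31.3%, CCAAT in 22.1%, TATAAA in 6.76% and AGATAA in 4.44%. A match is a match of letters in this window and says nothing of binding.

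A low gene that is high in blood alone passes the filter of a mean of 25 UPM only through blood, so the counts and medians of lists below describe the genes that passed, and the medians of the red cell and myeloid lists are also given without the filter. Of 27 erythroid genes 17 passed, the 4 calls among them. All 17 had a negative difference. At an unadjusted p under 0.05, 12 were lower and 0 higher, against 4.83% and 9.02% of all genes. Of the 13 outside the calls, 8 were among these 12. The median difference was -1.91 against 0.09 over all genes tested, and without the filter it was -1.55 against -0.17. Leaving out 1 mouse at a time moved it between -1.39 (without mouse 4) and -2.53 (without mouse 7). Bpgm, which makes the bisphosphoglycerate that sets oxygen release, measured 90.7, 395, 27.2 and 76.3 UPM in blood and 0, 0, 0 and 44.9 UPM in lymph node (-2.80 ± 0.74 SE, limma adjusted p = 0.148). Slc25a37, the mitochondrial iron carrier mitoferrin, measured 0, 197, 103 and 155 UPM in blood and 0, 0, 0 and 57.8 UPM in lymph node (-2.29 ± 0.77 SE, adjusted p = 0.221). Prdx2, a peroxidase of red cells, measured 163, 181, 62.3 and 76.3 UPM in blood and 39.2, 10.5, 29.3 and 43.4 UPM in lymph node without overlap (-1.65 ± 0.56 SE, adjusted p = 0.221). Of 17 genes for ubiquitin and autophagy in red cell maturation, 12 were tested, 1 was lower and 0 higher at p under 0.05, with a median of -0.40. Mkrn1, an E3 ubiquitin ligase in both lists, differed by -0.09 ± 0.66 (SE) and its levels overlapped between the organs.

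Of 25 neutrophil genes, 7 passed the filter and the median was -2.23. Of these, 3 were called lower (0.18% of all genes were) and 5 were lower at p under 0.05 (4.83% of all genes were). The 18 others fell under the filter, and without it the median was -1.09 against -0.17 over all genes. Msrb1, a methionine sulphoxide reductase, measured 90.7, 145, 66.1 and 97.7 UPM in blood and 28.6, 0, 0 and 57.8 UPM in lymph node without overlap (-2.23 ± 0.64 SE, limma adjusted p = 0.169). Cxcr2, the chemokine receptor that draws neutrophils to sites of injury, measured 43.8, 89.6, 17.8 and 88.9 UPM in blood and 0, 0, 0 and 33.2 UPM in lymph node (-2.10 ± 0.73 SE, adjusted p = 0.221). Summed over the list, blood held 1695, 6263, 2108 and 6394 UPM and lymph node 52.4, 787, 78.4 and 3179 UPM, lower in the node of each mouse but with the node of H7 above 2 bloods.

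Of 20 monocyte genes, 10 were tested, 7 were lower and 1 higher at p under 0.05, and the same 7 had every blood above every node, against 4.83% and 4.15% of all genes on that side. The median was -1.42, or -1.19 without the filter. Fcer1g and Tyrobp, adaptors that carry signals of receptors in myeloid and killer cells, differed by -2.27 ± 0.55 (SE) and -1.49 ± 0.51 (SE) (limma adjusted p = 0.148 and 0.221). Fcer1g stood at 322, 87.3, 171 and 86.4 UPM in blood and 31.2, 0, 40.5 and 39.7 UPM in lymph node. Ccr2, the receptor by which monocytes leave the marrow, stood at 122, 52.0, 69.3 and 64.2 UPM in blood and 29.5, 15.8, 38.3 and 13.2 UPM in lymph node (-1.35 ± 0.57 SE, adjusted p = 0.294). Ly6c2 went the other way, at 0, 7.17, 55.8 and 62.3 UPM in blood and 125, 237, 189.9 and 107 UPM in lymph node (2.48 ± 0.60 SE, adjusted p = 0.148), with no overlap. It marks inflammatory monocytes and is also carried by CD8 T cells. Plac8, a gene of monocytes and other cells, differed by -0.02 ± 0.67 (SE), with 3.46, -0.93, -2.19 and -0.41 in the 4 mice. Blood of H3 was listed at 0 for it, and without mouse 3 the difference was -1.07.

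T-cell genes lay higher in lymph node, although none was called. Of 29 genes 26 were tested and 25 of them had a positive difference. At p under 0.05, 15 were higher and 0 lower, against 9.02% and 4.83% of all genes. The median was 1.22 against 0.09 over all genes. For 12 genes every node lay above every blood, against 3.47% of all genes, and 19 were higher in 4 of 4 mice, against 10.9%. Summed over the list, blood held 2429.9, 2335, 2907 and 3184 UPM and lymph node 6139, 5772, 7965 and 4595 UPM, without overlap. Trac, the constant region of the T-cell receptor alpha chain, measured 200.1, 184, 116 and 125 UPM in blood and 618, 434, 686 and 411 UPM in lymph node (1.72 ± 0.41 SE, limma adjusted p = 0.145). Trbc1 and Trbc2, near-identical constant regions of the beta chain whose reads may be split between them, differed by 1.30 ± 0.40 (SE) and 1.22 ± 0.40 (SE) (adjusted p = 0.176 and 0.208). The CD3 chains carry the signal of that receptor into the cell, and Cd3d stood at 203, 72.1, 152 and 148 UPM in blood and 372, 358, 669.7 and 332 UPM in lymph node (1.54 ± 0.42 SE, adjusted p = 0.157). Cd8b1, a chain of the CD8 co-receptor, had the smallest p of the list, at 0, 19.3, 25.8 and 33.2 UPM in blood and 148, 114, 202 and 98.9 UPM in lymph node (2.49 ± 0.57 SE, adjusted p = 0.138). Cd4, the other co-receptor, stood at 0, 13, 39.4 and 23.6 UPM in blood and 50.4, 40.2, 59.0 and 37.0 UPM in lymph node (1.17 ± 0.67 SE, adjusted p = 0.448), higher in each mouse but with overlap. Lck, the kinase that starts receptor signalling, measured 78.2, 47.5, 77.8 and 123 UPM in blood and 259, 289, 314 and 225 UPM in lymph node (1.68 ± 0.45 SE, adjusted p = 0.148). Cd2, an adhesion receptor also found on natural killer cells, was the only tested member below 0, at -0.21 ± 0.40 (SE), and was higher in the node in 1 of 4 mice. Ms4a4b, a membrane protein of T cells, stood at 247, 243, 346 and 310.0 UPM in blood and 371, 321, 601 and 332 UPM in lymph node (0.46 ± 0.39 SE).

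B-cell genes lay on the side of blood in 3 of the 4 mice. Of 30 genes 29 were tested, 28 had a negative difference, none was called, and the median was -0.96. At p under 0.05, 13 were lower and 0 higher, against 4.83% and 9.02% of all genes. The list median was 0.37, -1.93, -1.35 and -0.95 in the 4 mice, where the medians over all genes were 0.82, -0.40, -0.18 and -0.14. Summed over the list, blood held 3359, 18276, 12703 and 17805 UPM and lymph node 3649, 4446, 4398 and 8007 UPM, so blood of H3 was low and the organs overlapped. Scaled by the total alone, H3 summed to 4938 UPM in blood and 4275 UPM in lymph node, so its order depends on the scaling. Cd79a and Cd79b, the signalling chains of the B-cell receptor, were lower in each mouse, with differences of -1.45 ± 0.42 (SE) and -1.53 ± 0.42 (SE) (limma adjusted p = 0.169 and 0.16). Cd79a stood at 188, 696, 386 and 616 UPM in blood and 93.1, 115, 143 and 298 UPM in lymph node. Ly6d, a surface marker of the B lineage, had the smallest p, at 297, 769, 634 and 716 UPM in blood and 141, 176, 152 and 281 UPM in lymph node without overlap (-1.60 ± 0.40 SE, adjusted p = 0.148). Ms4a1, the gene of CD20, measured 134, 864, 585 and 846 UPM in blood and 138, 219.8, 153 and 500.4 UPM in lymph node (-1.13 ± 0.43 SE, adjusted p = 0.265). Igkc, the constant region of the kappa light chain, measured 691, 4627, 2212 and 3699 UPM in blood and 755, 848, 862 and 1443 UPM in lymph node (-1.25 ± 0.43 SE, adjusted p = 0.221). Ighm, the heavy chain of IgM, differed by -1.11 ± 0.53 (SE) (adjusted p = 0.364), with -1.90 without mouse 3 and -0.55 without mouse 6. Ighd, the heavy chain of IgD, differed by -0.27 ± 0.69 (SE) and stood at 0, 557, 540.2 and 639 UPM in blood. The lambda chains Iglc2 and Iglc3 differed by -1.24 ± 0.39 (SE) and -0.96 ± 0.39 (SE) (adjusted p = 0.192 and 0.289) and are near-identical copies.

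The genes of MHC class II, which present peptides to CD4 T cells on B cells, dendritic cells and monocytes, lay with the B-cell genes. Of 13 genes 12 were tested, 8 were lower and 0 higher at p under 0.05 (4.83% of all genes were lower), and the median was -1.13. The same 8 were lower in 4 of 4 mice (10.5% of all genes were). Cd74, the chaperone of class II molecules, measured 2818, 10668, 3636 and 5275 UPM in blood and 2608, 1804, 1403 and 2921 UPM in lymph node (-1.22 ± 0.44 SE, limma adjusted p = 0.24). H2-Aa, the class II alpha chain, measured 1517, 5044, 2006 and 3287 UPM in blood and 1396, 1104, 956 and 1862 UPM in lymph node (-1.04 ± 0.42 SE, adjusted p = 0.275). H2-DMa, which loads peptide onto class II, measured 357, 512, 390.3 and 408 UPM in blood and 142, 117, 228 and 202 UPM in lymph node without overlap (-1.26 ± 0.41 SE, adjusted p = 0.208). Within B-marker barcodes the order differed between mice (scaled by the total of the range alone). In H7, the only mouse with at least 10 of them in both organs, the class II list summed to 16859 UPM in 286 blood barcodes and to 19370.1 UPM in 32 lymph node barcodes. H6 went the same way, at 10791 UPM in blood and 15416 UPM in 3 node barcodes. H4 went the other way, at 24837 UPM in blood and 14341 UPM in 5 node barcodes. With 1 mouse at 10 or more barcodes this has no test. MHC class I genes, which all nucleated cells use, had a median of 0.41 over 21 genes, with 1 higher and 0 lower at p under 0.05, and B2m, the light chain of class I, differed by 0.45 ± 0.41 (SE).

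Genes of naive lymphocytes and recirculation did not move as a group. Of 24 genes 22 were tested, 3 were higher and 2 lower at p under 0.05, and the median was -0.21, which became 0.16 with scaling by the total alone, where the median of all genes was 0.41. Dapl1, a gene of resting CD8 T cells, was the gene nearest to a call on the side of the node, at 78.2, 68.1, 272 and 228 UPM in blood and 755, 445, 1333 and 389 UPM in lymph node with no overlap (2.16 ± 0.44 SE, limma adjusted p = 0.0518). Its adjusted p lay between 3.4e-05 and 0.43 over the other settings and passed 0.05 in 11 of them. Ccr7, the receptor that guides cells into the T-cell zone, stood at 156, 387, 94.2 and 209 UPM in blood and 185, 218, 219 and 276 UPM in lymph node (0.24 ± 0.44 SE). S1pr1, the receptor for exit from the node, differed by -0.42 ± 0.42 (SE), and Klf2, a transcription factor of resting T cells, by 0.33 ± 0.41 (SE), and the organs overlapped for all 3. Foxp1, a factor of naive T and B cells, differed by -0.89 ± 0.41 (SE) (adjusted p = 0.338). The 8 Gimap GTPases, which keep lymphocytes alive, had a median of 0.31, with 1 higher and 0 lower at p under 0.05.

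Among killer-cell genes 6 of 21 were tested. Gzma was called, and Xcl1, a chemokine of killer cells that draws cross-presenting dendritic cells, was on the opposite side at 0, 0, 9.84 and 11.7 UPM in blood and 128, 33.3, 157 and 63.4 UPM in lymph node (2.68 ± 0.67 SE, limma adjusted p = 0.148). Ccl5, Nkg7 and Klrd1, a chemokine, a granule protein and a receptor of killer cells, differed by -0.37 ± 0.45 (SE), -0.12 ± 0.50 (SE) and 0.23 ± 0.50 (SE), all with overlap. With haemoglobin-rich barcodes left out these were 0.81, 1.55 and 1.59, and the median of the killer-cell list went from -0.24 to 1.18, where that of all genes was 0.31. That setting kept 13 barcodes with 2 distinct profiles in blood of H3 and removed all 95 barcodes of a blood library of H4. In blood of H3, killer-cell genes summed to 4176 UPM in the barcodes removed and 303 UPM in those kept (scaled by the total of the range alone). Of the cells that stay in the node, little was seen: 12 of 15 genes of stroma and endothelium were listed at 0 in all 8 sums and 1 was tested, Pecam1, an adhesion molecule of vessels that leukocytes also carry (-0.10 ± 0.52 SE). For macrophages 8 of 13 genes were listed at 0 everywhere and 1 was tested, Apoe, an apolipoprotein (-0.74 ± 0.83 SE). Its difference was -1.84 without mouse 3 and turned to 0.59 without mouse 6. Of 19 dendritic-cell genes 5 were tested and of 14 plasma-cell genes 4, of which 0 had a p under 0.05, with medians of -0.50 and -0.57. The platelet list had 1 of 19 genes tested, Cd9, a tetraspanin (-1.33 ± 0.73 SE), and that for regulatory and follicular helper T cells 3 of 13, with a median of 0.45.

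Housekeeping groups differed little from the median of all genes. The cytosolic ribosomal protein genes had a median of 0.22 over 80 of 86 genes, with 7 higher and 0 lower at p under 0.05. Nuclear genes of oxidative phosphorylation had a median of 0.28 over 71 of 82, and translation factors one of 0.12 over 28 of 29, with 0 genes at p under 0.05 in either list. Glycolysis genes had a median of 0.13 over 5 of 16. Of the cell-cycle genes 8 of 31 were tested, with 2 higher and 0 lower, and Mki67, a marker of dividing cells, stood at 0, 13, 0 and 8.30 UPM in blood and 124, 13.8, 34.0 and 38.9 UPM in lymph node (1.84 ± 0.81 SE, limma adjusted p = 0.311). Immediate early and stress genes, which dissociation can switch on, had a median of -0.20 over 31 of 32, with 1 higher and 3 lower at p under 0.05. Interferon-response genes had a median of -0.18 over 10 of 30, with 0 higher and 2 lower.

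**Figure D3:**
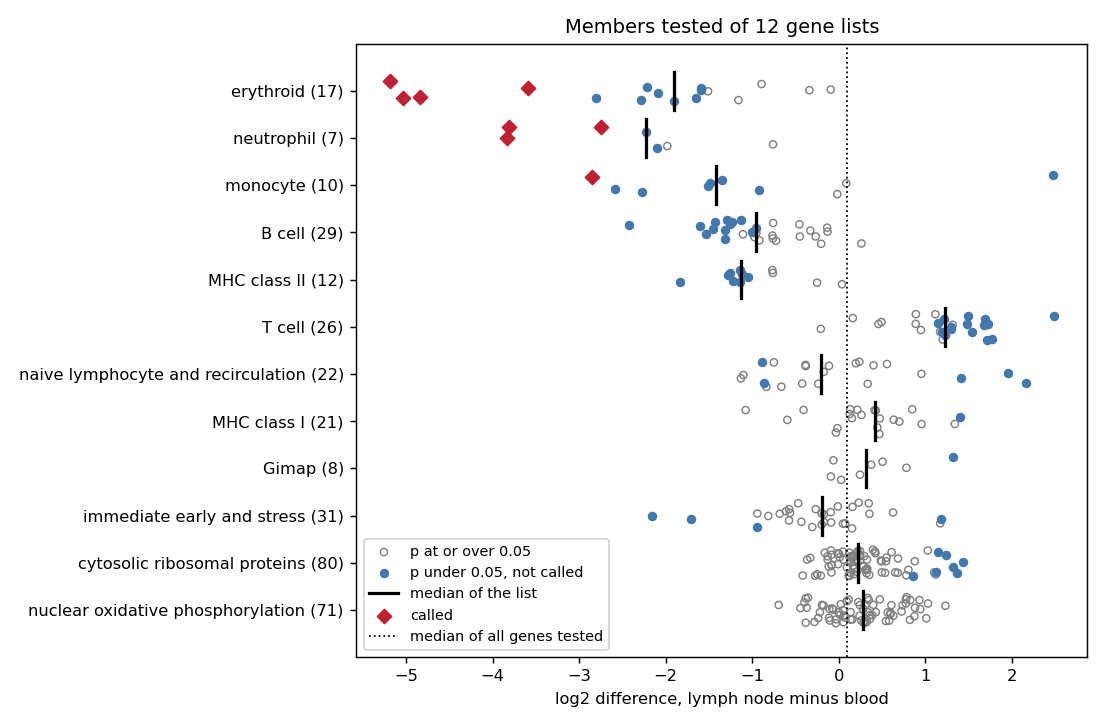
Log2 difference, lymph node minus blood (x axis), of each gene tested in 12 lists (y axis, number tested in brackets). Red cell, neutrophil, monocyte, B-cell and MHC class II lists have medians from -2.23 to -0.96, and the T-cell list has a median of 1.22, against 0.09 for all genes (dotted line). Without the filter on low genes the neutrophil median is -1.09.

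The medians of the erythroid, neutrophil, monocyte, T-cell, B-cell and MHC class II lists kept their sign without each mouse in turn and in each group of titles, those ending in CIA and those ending in 2CIA. The meaning of this suffix is not given in the sources used here. Both organs of a mouse carried the same suffix, so it did not differ within a pair. The T-cell median was 1.18 in the libraries ending in CIA and 1.92 in those ending in 2CIA, where the medians of all genes were -0.29 and 0.82. The B-cell median was -1.31 and -0.75 and the erythroid median -2.32 and -2.74 in the same libraries. By mouse, the T-cell median was 1.59, 1.15, 1.53 and 0.54 and the monocyte median -1.37, -1.85, -1.48 and -0.77. With haemoglobin-rich barcodes left out, the T-cell median was 1.32, the B-cell median -0.67 and the monocyte median -0.78, where that of all genes was 0.31. The dendritic-cell and interferon-response medians turned from -0.50 and -0.18 to 0.29 and 0.30. In this setting blood of H3 kept 13 barcodes with 2 distinct profiles.

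A pair of mice outside the comparison gave both organs as well. S2 and S7 had been immunized with bovine collagen II and had arthritis (CIA). No test was made on them. The blood of both and the node of S2 came from libraries ending in 2CIA, but the node of S7 summed a library ending in 2CIA and another ending in CIA, which differed. The T-marker range held 231 of 369 barcodes in the first and 16 of 273 in the second. The median difference over all genes was -0.01 in S2 and 0.84 in S7, so a sign in S7 has to be read against that shift. Of the 9 called genes 8 had the same sign in both mice (88.9%), against 2172 of 4990 genes tested (43.5%). Among all genes lower in lymph node at an unadjusted p under 0.05, 120 of 241 did (49.8%), and among those higher 389 of 450 (86.4%). By list, 24 of 26 T-cell, 10 of 17 erythroid, 7 of 12 MHC class II and 3 of 29 B-cell genes did. S100a8 stood at 67847 and 35836 UPM in their blood and at 277 and 434 UPM in their lymph nodes. Gzma was the exception among the 9 called genes, at 28.8 and 0 UPM in blood and 29.2 and 0 UPM in lymph node. The T-cell median was 1.93 in S2 and 2.80 in S7. The B-cell median was 0.44 in S2 and 0.24 in S7, the latter below that of all genes. Scaled by the total alone, B-cell genes in S7 summed to 8723 UPM in blood, 5232 UPM in the node library ending in 2CIA and 8074 UPM in that ending in CIA.

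**Figure D4:**
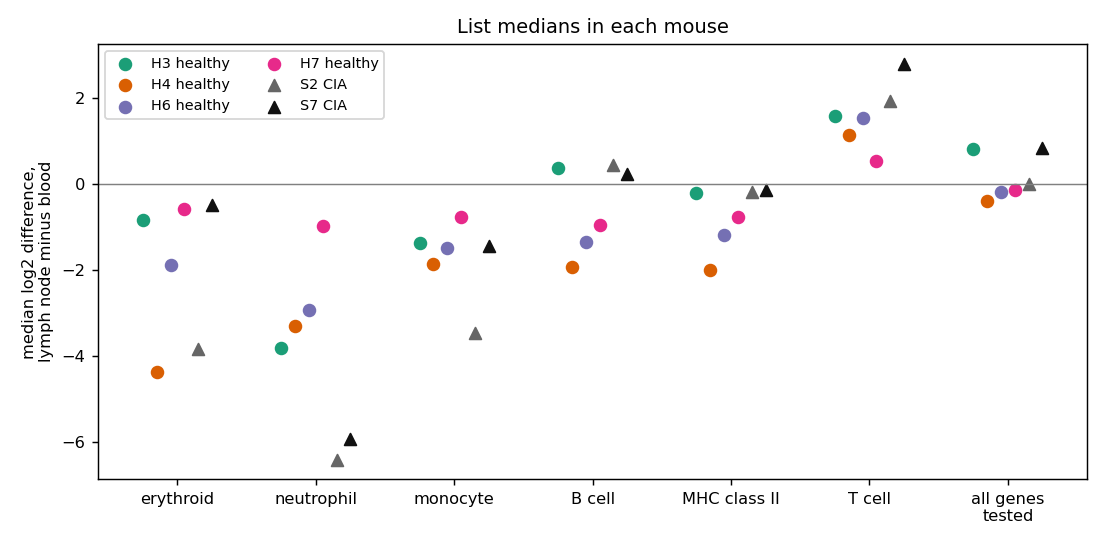
Median log2 difference, lymph node minus blood (y axis), of the tested members of 6 lists and of all genes tested (x axis), with a circle for each healthy mouse and a triangle for each CIA mouse. The T-cell median lies above 0 in all 6 mice and the neutrophil and monocyte medians below, while the B-cell median is below 0 in 3 of the 4 healthy mice. In S7, where the median of all genes is 0.84, the B-cell median is 0.24.

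Most genes higher in lymph node at p under 0.05 were pseudogenes, copies of genes that in general make no protein. Of 4990 genes tested 1020 were pseudogenes by RefSeq (20.4%), and they made up 297 of the 450 genes higher at p under 0.05 (66.0%) and 4 of the 241 lower (1.66%). Their median difference was 0.80 and 89.2% lay above 0, against -0.09 and 45.1% for the other genes. Pseudogenes held 22.4% of units in blood of H3, 12.9% and 8.30% in both blood libraries of H4, and 30.4% and 13.5% in blood of H6 and H7. In lymph node they held 31.3% in H3, 44.2% and 40.4% in H4, and 34.3% and 26.2% in H6 and H7. Each node was above the blood of its mouse. These are shares of all units, of which haemoglobin genes held 3.88% to 52.9% in blood and 0.00953% to 14.9% in lymph node. A larger haemoglobin share leaves less for other rows, and shares without haemoglobin were not computed. For each 100 units on ribosomal protein genes, ribosomal pseudogenes held 112 and 108 units in both lymph node libraries of H4 against 65.2 and 38.4 in its blood, and 76.8 against 39.4 in H7. The order was the opposite in H3, with 77.5 in lymph node and 79.5 in blood, and in H6, with 78.5 and 87.5. Pseudogenes share sequence with their parent genes, so a read can be assigned to either. The parts of alignment and of the haemoglobin share in the difference between the organs were not tested.

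**Figure D5:**
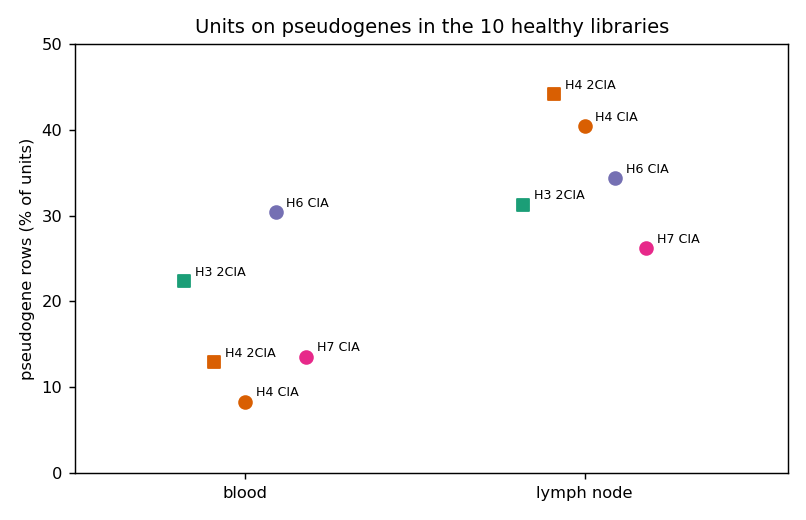
Share of units on pseudogene rows (percent, y axis) in the 10 healthy libraries, coloured by mouse, with circles for titles ending in CIA and squares for 2CIA. Lymph node libraries lie between 26.2% and 44.2% and blood libraries between 8.30% and 30.4%. Shares are of all units, haemoglobin included.

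Within T-marker barcodes, blood and node could be compared in H3 and H7 only (n = 2 pairs). Genes of other cells also differed there. Haemoglobin genes held 7.74% and 3.29% of units in blood of H3 and H7 and 0.00849% and 1.99% in lymph node. Monocyte genes summed to 4016 and 710 UPM in blood and 518 and 613 UPM in lymph node (scaled by the total of the range alone). Of 5261 genes tested 7 were called (limma, 0.133%), all higher in lymph node, where the median of all genes was 1.11. Actb, the beta-actin gene of the cytoskeleton, stood at 3044 and 1598 UPM in blood of H3 and H7 and at 7507 and 7285 in lymph node, a difference of 1.74 ± 0.21 (SE, adjusted p = 0.0165). Malat1, a nuclear long non-coding RNA, stood at 2392 and 3738 in blood and 8444 and 7290 in lymph node (1.39 ± 0.19, adjusted p = 0.0218). Rps19-ps3 and Gm4525 also exceeded the median, at 2.61 and 1.78. The first is a pseudogene of a ribosomal protein. The ribosomal genes Rpl32 and Rps14 and the actin-binding Tmsb4x differed by 0.78, 0.55 and 0.65, which is less than the median of all genes. These blood ranges held 13 and 14 barcodes with 2 and 5 distinct profiles, and with scaling by the total alone 4 genes were called, 1 of them higher, at a median of 0.35. With a pseudocount of 1, without the variance trend or without the pairing limma called 0 genes, with 638 to 1290 at an unadjusted p under 0.05.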

How the data were processed

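The authors aligned Seq-Well reads to mouse GRCm38 with STAR, called transcripts with the Drop-seq tools, dropped poor cells and smoothed over nearest neighbours. The deposited values are a smoothed signal made by the authors, whole numbers that sum a barcode and its neighbours, and not counts. Several barcodes can hold one profile, and no count model was used. A RefSeq table of GRCm38.p6 gave a symbol for 21404 of 23013 genes, and also coordinates, pseudogenes and promoter sequences.

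All barcodes of a mouse and organ were summed, and the sums were scaled by their totals and a trimmed mean (numpy 2.4.6, trimming 30% of the log ratios and 5% of the levels from either end). Genes averaging 25 UPM or more entered a limma 3.58.1 fit in R 4.3.3 of log2(UPM + 10) on mouse and organ, with a trend of variance on level. Benjamini-Hochberg adjustment of two-sided p-values ran over all genes tested, a call is an adjusted p under 0.05, and differences of low genes are understated on this scale. The replicate block (pairing) comes from the labels, since the same animals gave both organs. Deviations of blood and node of the same mouse correlated at -0.00143, -0.19, 0.05 and 0.17 in H3, H4, H6 and H7. The p-values and SE use the spread between these 4 mice, drawn toward the trend of variance over all genes tested. A printed SE can therefore be smaller than a gene's own 4 differences would give. Hba-a1 differed by -10.0, -6.10, -3.74 and -0.92 in the 4 mice, beside an SE of 0.88. T-marker and B-marker ranges used 12 genes each, a ratio of at least 3 and under 10% haemoglobin, and a mouse entered with 10 such barcodes in both organs. That left H3 and H7 for T-marker barcodes and H7 alone for B-marker barcodes, whose test was not run. An exact permutation test over 4 pairs cannot go below p = 0.125 and was not used.

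Members and lists were chosen with earlier results of these data known. Genes were named if called (up to 12 for each direction), if among the 2 of smallest p in a direction without a call, if among the 6 of smallest p called in T-marker barcodes, or if among the 4 highest in level of a list. Other list members, and the seventh call in T-marker barcodes, were chosen after their values were seen. Alternatives changed the scaling, pseudocount, filter, trend, pairing, mice, title suffix and barcodes. Smoothed values give no read depth, so no counting interval is given. A gene that the naming rule or a list would give is not reported here.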

Additional observations from a re-analysis of the deposited data

Results flagged for a closer look

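The values of libraries below lie apart from the other 3 of their group by Dixon's criterion, whose 95% limit flags about 1 in 20 groups by chance. Here 25 of 204 groups met it, and no explanation was tested.

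The lymph node of H7 stood apart for haemoglobin, with 14.9% of units and 14.1% haemoglobin-rich barcodes, and for its T-marker share of 18.5%. It was also the highest node for summed erythroid genes (132927 UPM), Hbb-bs (101749 UPM), Hbb-bt (11659 UPM) and the haem enzyme Alas2 (173 UPM). Among immune genes it was the highest for Igkc (1443 UPM), the protease Ctss of antigen processing (481 UPM), the interferon-induced Rsad2 (139 UPM), the myeloid factor Cebpb (79.3 UPM) and Il1b (38.5 UPM). The lymph node of H6 was the only one with Apoe listed at 0.

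Blood of H4 stood apart at the high end for summed erythroid genes (1.13241e+06 UPM, over the nominal total because its trimmed-mean scaling factor was 0.458), Hbb-bs (815178 UPM), Hba-a1 (220937 UPM) and Hbb-bt (90042 UPM). The same blood was highest for Nfkbia, an inhibitor of NF-kB (2769 UPM), the initiation factor Eif1 (2182 UPM) and the autophagy gene Map1lc3b (738 UPM). Blood of H3, with 7 distinct profiles, stood apart for its T-marker share (48.1%), summed monocyte genes (3352 UPM), Ccl5 (885 UPM) and a low Eef1a1, an elongation factor (751 UPM). Blood of H6 was lowest for Eef1b2, another elongation factor (476 UPM).

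Another kind of difference, between healthy and CIA mice, singled out 2 genes. The light-chain genes Iglc2 and Iglc3 were lower in lymph node in all 4 healthy mice, with mean differences of -1.24 and -0.96 on the log2 scale. In the CIA mice S2 and S7 the differences were 0.74 and 0.23 for Iglc2 and 1.43 and 0.01 for Iglc3. Iglc3 in S7 stood at 454 UPM in blood and 457 UPM in lymph node, and both values of S7 lie below its median over all genes of 0.84. The difference between healthy and CIA mice was not tested.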

How the results depend on the processing

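All 9 called genes kept their direction under the 19 other settings, and each stayed called in 10 to 13 of them, with adjusted p up to 0.432. The number of calls moved more than the directions. It was 0 with scaling by the total alone (934 genes at an unadjusted p under 0.05), 0 with a pseudocount of 1 (514) and 0 without the mean-variance trend (639), by limma in each case. It was 34 with a pseudocount of 50 (9 higher and 25 lower), 51 with no filter on low values (23 higher and 28 lower), 3 with haemoglobin-rich barcodes left out and 22 with each distinct profile counted once (5 higher and 17 lower). Without the replicate block it was 2, and this pairing is that of the animals. Leaving out each mouse gave 0 to 23 calls, the lowest without mouse 6 (742 at an unadjusted p under 0.05) and the highest without mouse 7 (4 higher and 19 lower). Libraries ending in 2CIA gave 134 calls, 120 of them higher, from 2 mice of which one is H3, and the libraries of H4 entered as separate pairs gave 66 (30 higher and 36 lower). Mice H4 and H6 alone, a choice made after seeing the data, gave 48 (4 higher and 44 lower). Median-of-ratios scaling, scaling without haemoglobin genes, a filter at 100 UPM and libraries ending in CIA gave 7 to 11. Among those, both scalings and the filter called 1 gene higher. In T-marker barcodes the calls were 4 with scaling by the total alone and 0 with a pseudocount of 1, without the trend and without the replicate block. A ratio of 6, haemoglobin under 2% and leaving out H3 or H7 left too few mice for a fit in this range, and H4 and H6 were not in it. The cause of these changes was not tested. Precision is limited by 4 pairs, by the 27 barcodes in blood of H3 and by smoothing, which hides the read depth.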
